A study of Rattus norvegicus with 12 samples.

Results

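The genes described here encode the constitutive proteasome with the factors that build, cap or inhibit it. They were taken by name from an expression table of 18344 rows, as the rows whose gene name begins with Psm, a letter from a to g and a digit. The interferon-inducible genes Psmb8, Psmb9, Psmb10, Psme1 and Psme2 were left out. This gave 44 genes with 1 row each. They are 8 alpha and 7 beta genes of the 20S core, 6 ATPase and 11 non-ATPase genes of the 19S regulatory particle, 7 assembly chaperones, and 3 genes for activators or an inhibitor. The name pattern also takes 2 genes that encode no subunit. These are Psmc3ip, a factor of meiotic recombination named for binding a proteasomal ATPase, and Psme3ip1, which binds the activator encoded by Psme3. The row named Psma3l stood in the place of the alpha 3 subunit. A filter on low values, at least 1 FPKM in 3 or more libraries, was passed by 43 of the 44. The other one, Psma8, an alpha subunit of male germ cells, lay between 0.0331 and 0.195 FPKM in the 12 libraries and was not tested.

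The proteasome is the protease of the cytosol and nucleus that degrades proteins tagged with ubiquitin. Its 20S core is a barrel of alpha rings, which gate the entry, and beta rings, which hold the catalytic sites. The 19S regulatory particle sits on the ends of the barrel, binds and removes the ubiquitin chain, and unfolds the protein with a ring of ATPases. Dedicated chaperones assemble both particles. In human cells the genes of both particles are raised together by the transcription factor NRF1 (Nfe2l1) when proteasome activity is lost. Damaged proteins arise during ischaemia and reperfusion, and the proteasome is one route of their removal.

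Poly-A RNA had been sequenced in 12 libraries, 3 biological replicates in each of 4 groups, all of them exposed to oxygen-glucose deprivation and reperfusion (OGD/R), a culture model of ischaemia. The groups were OGD/R with CIRBP, OGD/R with NC, OGD/R with si-CIRBP and OGD/R with si-NC. The titles name H9C2, a line derived from embryonic rat heart, whereas the cell line label gives rat astrocytes. The labels state neither how CIRBP, the cold-inducible RNA-binding protein, was supplied nor what NC contained. The table's columns for CIRBP and NC carry the prefix ad, which is not explained, and the columns of the other arm carry no prefix. Each treatment was set against its own control, CIRBP against NC and si-CIRBP against si-NC, to ask how treatments aimed at Cirbp bear on gene expression after OGD/R. These pairs are called arms below. Libraries without OGD/R were not analysed here.

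The values are FPKM, that is, fragments corrected for transcript length and for the size of the library, and their sum was 457775 to 502889 per library. The absolute depth is unknown. Relative to NC library 1, the depths read from the spacing of the lowest values were 0.842 to 1.03. In the CIRBP libraries, Cirbp was higher, at 34.3, 36.5 and 36.5 FPKM, against 19.03, 19.84 and 20.1 FPKM in NC (log2 fold change 0.83, limma adjusted p = 2.47e-06). The libraries labelled si-CIRBP did not have less of it, with 26.5, 28.6 and 27.7 FPKM, against 29.0, 24.2 and 27.0 FPKM in si-NC (log2 fold change 0.05, limma adjusted p = 0.609). No direction given for that arm therefore rests on a measured loss of Cirbp. Of 15 muscle markers, 13 had a row, and their summed level was 14.6 to 16.2 FPKM in CIRBP and 14.2 to 15.6 FPKM in NC. The same sum was 715 to 1030 FPKM in libraries labelled si-CIRBP. It was 121 to 1480 FPKM in si-NC, where library 1 was the low one. Most of it in that arm was Acta2 and Tagln, with means of 557 and 183 FPKM in libraries labelled si-CIRBP and 583 and 221 FPKM in si-NC. The muscle regulator Myog was at or under 0.124 FPKM in every CIRBP and NC library and listed at 0 in 3 of them. Tnni3 went the other way, with means of 5.66 FPKM in CIRBP and 3.79 FPKM in NC, against 2.63 FPKM in libraries labelled si-CIRBP and 2.44 FPKM in si-NC. The means of Myh6 and Actc1, under 1 FPKM in all 12 libraries, were not lower in CIRBP and NC either. The 8 astrocyte markers with a row, of 9, summed to 285 to 302 FPKM in CIRBP and 191 to 205 FPKM in NC. They summed to 214 to 224 FPKM in libraries labelled si-CIRBP and 169 to 197 FPKM in si-NC. Of these, S100b was the highest, between 110.5 and 188.4 FPKM. Aldoc (9.32 to 91.0 FPKM) and Gja1 (9.82 to 34.9 FPKM) came next by mean. Gfap, the astrocyte filament protein, was between 1.44 and 6.89 FPKM, and Aldh1l1 was at or under 0.287 FPKM in all 12 libraries. Mitochondrially encoded rows held 7.82% to 8.29% of summed FPKM in CIRBP and 5.89% to 6.06% in NC. They held 5.44% to 8.06% in the libraries labelled si-CIRBP and 6.09% to 9.56% in si-NC. The part of these differences in the results below was not tested, and in bulk RNA fewer cells of a type and less RNA per cell cannot be told apart.

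The constitutive subunits were abundant in every library. Per length, over all 12 libraries, the most abundant were Psmb4 (mean 192 FPKM), a structural beta subunit, Psmc3 (182 FPKM), an ATPase, and Psmb1 (178 FPKM), another structural beta subunit. The 7 tested alpha genes averaged between 24.0 FPKM (Psma4) and 162 FPKM (Psma6), and the 7 beta genes between 65.4 FPKM (Psmb7) and 192 FPKM (Psmb4). The ATPases ran between 64.4 FPKM (Psmc6) and 182 FPKM (Psmc3), and the non-ATPase subunits between 45.1 FPKM (Psmd11) and 132 FPKM (Psmd2). Chaperones were lower, with a median over genes of 35.8 FPKM, and the least abundant tested gene was the chaperone Psmd10 (gankyrin), at 12.1 FPKM. The members together made up 0.667% ± 0.0131 of summed FPKM in CIRBP (SD, n = 3 here and below) and 0.775% ± 0.0120 in NC. Their share was 0.755% ± 0.0120 in the libraries labelled si-CIRBP and 0.751% ± 0.0426 in si-NC. The CIRBP libraries lay below all NC libraries in this share, and the groups of the other arm overlapped.

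To show what precedes the genes on which the comparisons below turn, the 250 bases before the annotated start are printed for 5 of them, on the gene's own strand and credited to RefSeq (build GRCr8). Psmd1 (chr9:94157721-94157970, plus strand) and Psmc6 (chr15:21022064-21022313, plus strand) encode 19S subunits that were lower in CIRBP. Psmb3 (chr10:83193537-83193786, plus strand) and Psmb5 (chr15:32047380-32047629, minus strand) encode core subunits, the second of them catalytic, and Psmf1 (chr3:160720916-160721165, minus strand) encodes the inhibitor that fell in both arms. Capitals mark the antioxidant response element core TGACNNNGC or the CCAAT box, searched on both strands, so that ATTGG is a CCAAT box on the other strand.
Psmd1: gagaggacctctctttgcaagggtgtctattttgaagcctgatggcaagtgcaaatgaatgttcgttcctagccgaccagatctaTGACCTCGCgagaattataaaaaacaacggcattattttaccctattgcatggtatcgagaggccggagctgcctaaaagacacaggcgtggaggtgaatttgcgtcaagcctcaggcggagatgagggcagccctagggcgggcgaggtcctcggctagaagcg
Psmc6: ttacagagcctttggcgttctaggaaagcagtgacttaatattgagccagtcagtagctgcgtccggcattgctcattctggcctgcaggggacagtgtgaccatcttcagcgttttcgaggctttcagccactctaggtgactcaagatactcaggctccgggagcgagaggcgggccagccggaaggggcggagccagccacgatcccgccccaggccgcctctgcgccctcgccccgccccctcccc
Psmb3: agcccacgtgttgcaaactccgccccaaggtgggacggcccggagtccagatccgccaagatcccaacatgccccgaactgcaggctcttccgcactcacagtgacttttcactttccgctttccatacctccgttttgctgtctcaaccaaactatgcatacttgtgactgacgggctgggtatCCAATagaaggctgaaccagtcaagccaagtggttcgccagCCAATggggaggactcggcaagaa
Psmb5: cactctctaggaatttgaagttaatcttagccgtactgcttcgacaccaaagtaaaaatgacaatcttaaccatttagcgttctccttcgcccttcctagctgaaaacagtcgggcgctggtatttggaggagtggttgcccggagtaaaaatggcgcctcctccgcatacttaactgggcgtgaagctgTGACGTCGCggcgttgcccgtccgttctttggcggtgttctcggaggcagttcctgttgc
Psmf1: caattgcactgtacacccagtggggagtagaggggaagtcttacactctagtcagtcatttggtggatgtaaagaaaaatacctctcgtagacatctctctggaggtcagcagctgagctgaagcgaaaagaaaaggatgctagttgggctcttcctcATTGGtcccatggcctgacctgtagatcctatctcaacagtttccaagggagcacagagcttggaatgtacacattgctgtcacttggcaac

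The antioxidant response element core is the motif through which NRF1 acts on proteasome genes in human cells, and the CCAAT box is bound by NF-Y, whose subunits are encoded by Nfya, Nfyb and Nfyc. Of the 44 genes, 39 had a promoter entry. The first motif occurred in 6 of these 39 windows (15.4%), against 10.1% of 33469 rat promoter windows of the same length. It lay 165 bases before the start of Psmd1 and 60 bases before that of Psmb5. The CCAAT box occurred in 20 of the 39 (51.3%), against 34.0% of all windows. Psmb3 had it 65 and 24 bases before its start, Psmf1 had it 92 bases before its start, and the window of Psmc6 held neither motif. By role, the first motif was in 0 of 6 alpha windows, in 3 of 7 beta windows and in 1 of the 14 windows of 19S genes with an entry. The CCAAT box was in 8 of 13 core windows and 5 of 14 windows of 19S genes. These matches describe letters in a window and not binding.

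In CIRBP against NC, most Psm-named genes of the 19S regulatory particle were lower and most genes of the 20S core were not. Of the 43 tested members, 26 were called at an adjusted p under 0.05 with limma, 5 higher and 21 lower. Of all 14257 genes tested, 54% were called in this comparison, 19.7% higher and 34.2% lower. The call of a member alone is therefore common here, and what differs among the members is the direction by role. Of the 17 genes of the 19S particle, 13 were lower and 0 higher, with a median log2 fold change of -0.37, against -0.08 over all genes tested. In 15 of the 17, all 3 CIRBP libraries lay below all 3 NC libraries. The share of all genes tested that separated in this way was not computed, so this count has no background beside it. The 17 leave out 19S genes without a Psm name. Of these, Sem1 was called higher, with means of 105.4 FPKM in CIRBP and 89.9 FPKM in NC. Adrm1 was called lower, with 63.5 FPKM in CIRBP and 81.2 FPKM in NC. Of the 14 tested core genes, 3 were higher and 1 lower, with a median log2 fold change of 0.06. The median of all genes was 0.03 when the libraries were scaled to one median, and the split of the calls moved with it. With that scaling 10 of the 17 genes of the 19S particle were lower and 0 higher, and 9 of the 14 core genes were higher and 1 lower. With median ratios the counts were 11 lower and 0 higher in the 19S particle, and 9 higher and 1 lower in the core. Of all genes, 55% were called with one median and 54.8% with median ratios, in either direction. The shares higher and lower were not computed under these scalings, so the scaled splits have no background by direction.

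**Figure D1:**
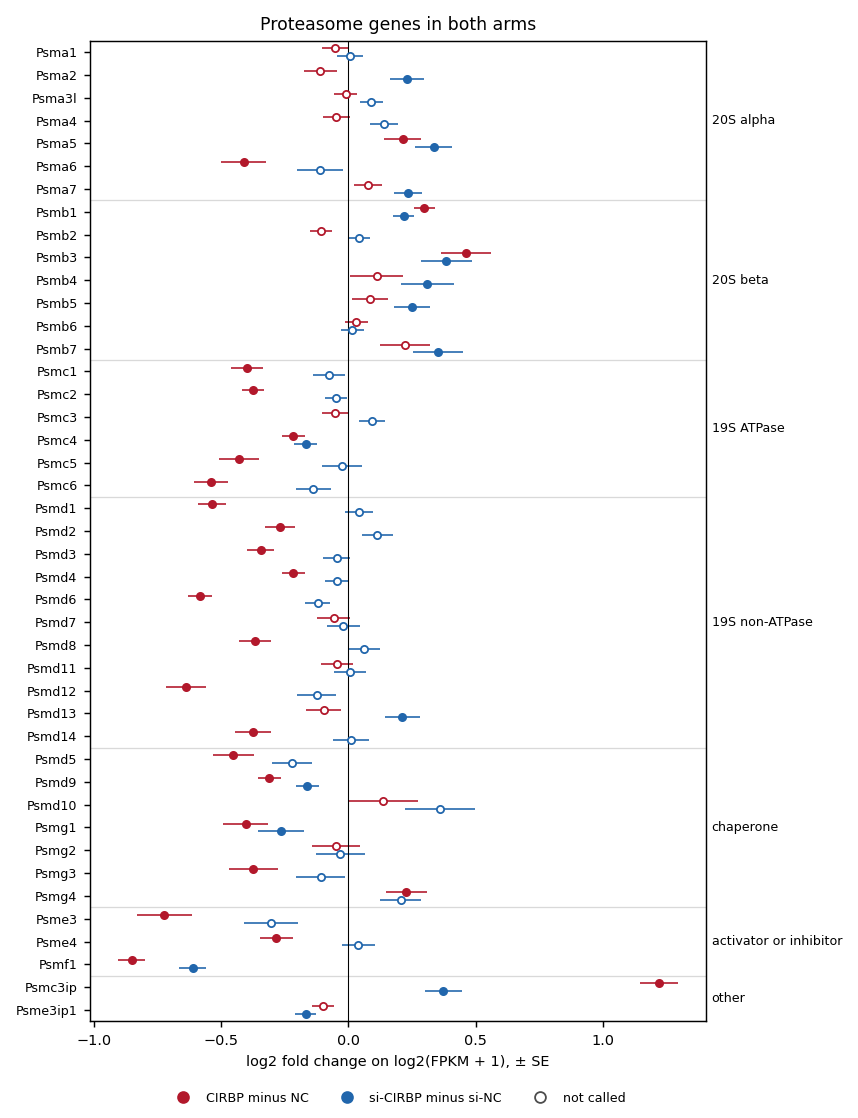
Log2 fold change on the log2(FPKM + 1) scale (x axis, points with SE) of the 43 tested members, ordered by role, for CIRBP minus NC in red and si-CIRBP minus si-NC in blue. Filled points passed the limma test at an adjusted p under 0.05. The red points of 13 of the 17 genes of the 19S particle are filled and below 0, and the blue points of 8 of the 14 core genes are filled and above 0.

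Among the ATPases, Psmc1, Psmc2, Psmc4, Psmc5 and Psmc6 fell and Psmc3 did not pass the test. Psmc6 (ENSRNOG00000007203), whose promoter window is given above, was at 54.3, 51.4 and 53.8 FPKM in CIRBP, against 75.8, 76.2 and 81.2 FPKM in NC. Its log2 fold change of -0.54 (SE 0.0678, limma adjusted p = 6.79e-05) was the lowest of the 6. Psmc3, the most abundant of them, was at 185, 181 and 183 FPKM in CIRBP, against 182, 192 and 195 FPKM in NC, so its groups overlapped (log2 fold change -0.05, limma adjusted p = 0.408). The ATPases therefore did not move by equal amounts, with log2 fold changes between -0.54 and -0.05. The fall of Psmc4, of -0.22, passed the test with the values as deposited and not after scaling to one median (limma adjusted p = 0.209) or by median ratios (0.0912).

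Among the non-ATPase genes of the 19S particle, 8 of 11 fell, against 34.2% lower over all genes tested. Psmd7, Psmd11 and Psmd13 did not pass the test. Psmd12 (ENSRNOG00000003117), a subunit of the lid that holds the deubiquitinating part of the particle, was at 70.1, 68.7 and 73.3 FPKM in CIRBP, against 109.2, 108.5 and 113.9 FPKM in NC. This is a log2 fold change of -0.64 (SE 0.0775, limma adjusted p = 5.30e-05), and the CIRBP libraries all lay far below the NC libraries. Psmd6 (ENSRNOG00000006751), another lid subunit, was at 55.8, 56.6 and 59.4 FPKM in CIRBP, against 85.3, 83.9 and 89.4 FPKM in NC (log2 fold change -0.58, limma adjusted p = 3.75e-06). Psmd1 (ENSRNOG00000017730), the large scaffold subunit of the base, was at 50.5, 47.5 and 51.1 FPKM in CIRBP, against 71.9, 71.0 and 74.3 FPKM in NC (log2 fold change -0.53, limma adjusted p = 1.53e-05). These 3 genes had no overlap between the groups. Psmd14, the metalloprotease that cuts the ubiquitin chain from the substrate, averaged 50.4 ± 3.40 FPKM in CIRBP and 65.7 ± 2.76 FPKM in NC. Its log2 fold change was -0.38 (limma adjusted p = 0.000978), whereas Psmd7, its inactive partner in the lid, had -0.06 (limma adjusted p = 0.498). Psmd4, a ubiquitin receptor, averaged 69.4 FPKM in CIRBP and 80.7 FPKM in NC, and Psmd2, the scaffold for shuttle receptors, 109 FPKM in CIRBP and 132 FPKM in NC. Both passed the test as deposited (log2 fold changes -0.22 and -0.27), and both lost the call after scaling to one median (limma adjusted p = 0.277 and 0.0940).

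The core genes gave a mixed picture in CIRBP against NC. Psmb3 (ENSRNOG00000052730), a structural beta subunit, was at 128.6, 114.0 and 128.5 FPKM in CIRBP, against 89.7, 85.7 and 92.9 FPKM in NC (log2 fold change 0.46, limma adjusted p = 0.00251). Psmb1 (ENSRNOG00000001488), another structural beta subunit, was at 200.2, 192 and 198 FPKM in CIRBP, against 156, 159 and 164 FPKM in NC (log2 fold change 0.30, limma adjusted p = 0.000144). In both genes every CIRBP library lay above every NC library. Psma5, an alpha ring subunit, was also higher (log2 fold change 0.21, limma adjusted p = 0.0283), but lost the call in 4 of the 6 fits that left out 1 library of these groups. Psma6, another alpha ring subunit, moved the other way and was at 133.6, 131 and 135 FPKM in CIRBP, against 172, 176 and 185 FPKM in NC (log2 fold change -0.41, limma adjusted p = 0.00258). It is the only core gene that fell in this comparison, under the values as deposited and under both scalings.

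The 3 catalytic subunits did not pass the test in CIRBP against NC with the values as deposited, but each was called higher after either scaling. Psmb5, the chymotrypsin-like site and the target of clinical proteasome inhibitors, was at 67.9, 67.8 and 78.7 FPKM in CIRBP, against 64.6, 65.7 and 71.2 FPKM in NC. The groups overlapped, and the 95% interval of the log2 fold change ran between -0.07 and 0.24. Psmb6, the caspase-like site, was at 112.7, 112.2 and 115.4 FPKM in CIRBP, against 112.5, 105.6 and 114.9 FPKM in NC, with an interval between -0.07 and 0.13. Psmb7, the trypsin-like site, was at 60.3, 68.6 and 73.1 FPKM in CIRBP, against 55.7, 54.8 and 61.9 FPKM in NC. Its log2 fold change of 0.22 missed the threshold (limma adjusted p = 0.0786), with an interval between 0.01 and 0.44. With libraries brought to one median the log2 fold changes were 0.24 for Psmb5, 0.18 for Psmb6 and 0.37 for Psmb7 (limma adjusted p = 0.0106, 0.00387 and 0.0106), and Psmb7 was also called with a variance factor per group (0.0117).

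The inhibitor and both activators fell in CIRBP. Psmf1 (ENSRNOG00000009640), known as PI31, which inhibits the 20S core in vitro and binds it in cells, had the largest fall of all members. It was at 27.6, 29.5 and 29.0 FPKM in CIRBP, against 52.7, 51.8 and 53.0 FPKM in NC (log2 fold change -0.85, SE 0.0533, limma adjusted p = 5.72e-07). The CIRBP values were thus little above the middle between 0 and the NC values, with no overlap. Psme3 (ENSRNOG00000051344), the nuclear activator PA28 gamma, was at 22.9, 23.8 and 25.9 FPKM in CIRBP, against 40.5, 41.3 and 39.8 FPKM in NC (log2 fold change -0.72, limma adjusted p = 0.000208). Psme4, the activator PA200, averaged 47.1 ± 0.891 FPKM in CIRBP and 57.5 ± 1.08 FPKM in NC (log2 fold change -0.28, limma adjusted p = 0.00370), and this call was lost after scaling to one median (0.0632). The groups did not overlap in any of these 3 genes.

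Among the chaperones, 4 of 7 fell in CIRBP and 1 rose, against 34.2% lower and 19.7% higher over all genes tested. Psmd5 and Psmd9, which help to build the ATPase base, had log2 fold changes of -0.45 and -0.31 (limma adjusted p = 0.000681 and 0.000166). Psmg1 and Psmg3, which help to build the alpha ring, had -0.40 and -0.37 (limma adjusted p = 0.00283 and 0.00724). Psmg4, the partner of Psmg3 in a dimer, was at 40.0, 36.8 and 40.6 FPKM in CIRBP, against 33.0, 33.4 and 33.3 FPKM in NC (log2 fold change 0.23, limma adjusted p = 0.0315). The partners thus moved in opposite directions, but the rise of Psmg4 was lost in 5 of the 6 fits without 1 library. Psmc3ip (ENSRNOG00000020022), which is no subunit, rose most of all members, to 39.2, 42.3 and 43.3 FPKM in CIRBP, against 16.4, 17.6 and 17.9 FPKM in NC. Its log2 fold change was 1.22 (SE 0.0737, limma adjusted p = 4.63e-07).

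**Figure D2:**
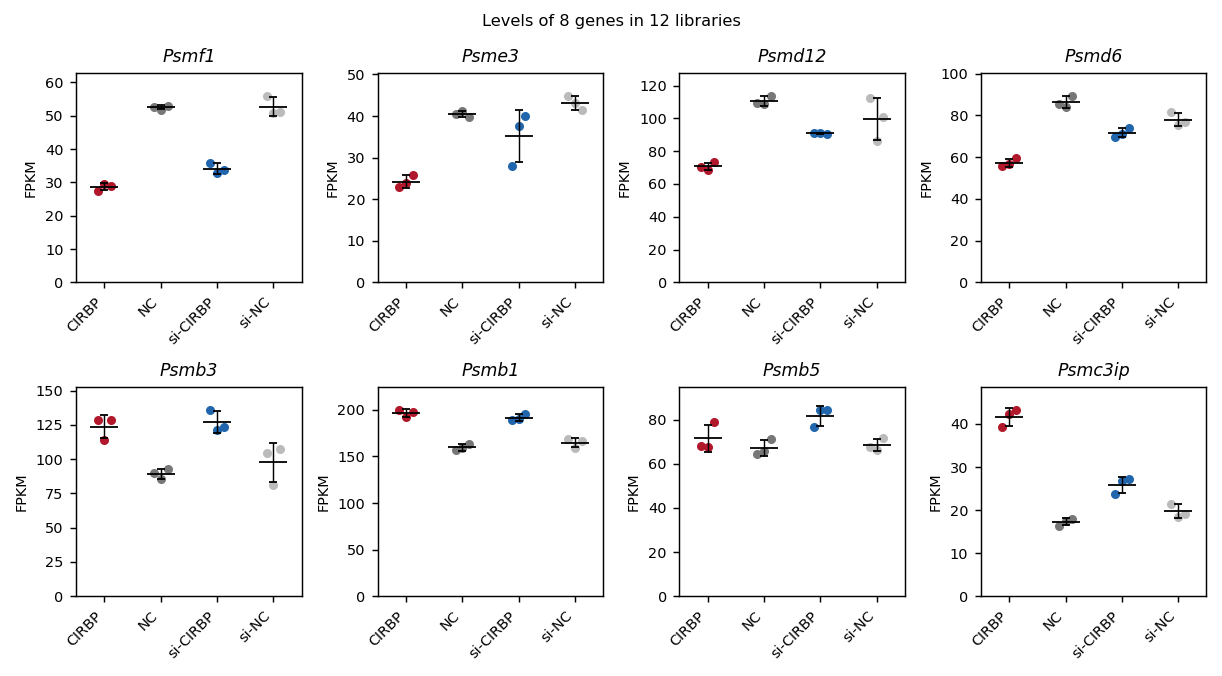
FPKM (y axes, each starting at 0) of 8 genes in the 3 libraries of each group, as points, with the mean and SD in black. Psmf1 lies between 27.6 and 29.5 FPKM in CIRBP and between 51.8 and 53.0 FPKM in NC, and it is also lower in the libraries labelled si-CIRBP than in si-NC. Psmb1 and Psmb3 are higher in CIRBP and in the libraries labelled si-CIRBP than in their controls, and Psmd12 of si-NC shows the wide spread of that group.

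In si-CIRBP against si-NC, where Cirbp itself did not pass the test, core genes were higher and genes of the 19S particle mostly did not pass it. Of the 43 tested members, 15 were called with limma, 10 higher and 5 lower, against 29.6% of all genes tested, 9.08% higher and 20.5% lower. Of the 14 core genes 8 were higher and 0 lower, namely Psma2, Psma5, Psma7, Psmb1, Psmb3, Psmb4, Psmb5 and Psmb7, and the median log2 fold change of the core was 0.22. Of the 17 genes of the 19S particle, Psmd13 was higher and Psmc4 lower, with a median of -0.02, against -0.04 over all genes tested. These calls rest on the spread of all 12 libraries. In simulated data with 200 changed genes of 14257, unchanged genes made up 64.3% of the calls of this comparison. That share depends on how many genes change. Far more genes were called in the deposited data, so it is no estimate for the calls given here. A fit of the 6 libraries of this arm alone called 1 member, Psmf1, and 8.27% of all genes. With a variance factor per group 3 members were called, Psmb1 and Psmc3ip higher and Psmf1 lower, against 14.2% of all genes. The median SD of log2 values over all genes was 0.147 in the libraries labelled si-CIRBP and 0.133 in si-NC, against 0.0570 in CIRBP and 0.0539 in NC. Scaling to one median gave 19 higher and 1 lower, and scaling by median ratios 16 higher and 1 lower, so of the 5 falls only 1 stayed under either. Of all genes, 30.3% and 29.8% were called under these scalings, in either direction, and the shares by direction were not computed. Without si-NC library 1, the library with few muscle transcripts, 9 were higher and 4 lower, and without si-NC library 2, the one richest in mitochondrial RNA, 8 were higher and 9 lower. Of all genes, these fits called 28.2% and 31.8%.

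Single values show how far these calls reach. Psmb3 was at 136, 121 and 124 FPKM in libraries labelled si-CIRBP, against 105, 81.1 and 107 FPKM in si-NC (log2 fold change 0.39, limma adjusted p = 0.0149), with no overlap. Psmb7 was at 81.7, 73.7 and 74.4 FPKM in libraries labelled si-CIRBP, against 62.5, 65.7 and 51.7 FPKM in si-NC (log2 fold change 0.35, limma adjusted p = 0.0203). This catalytic subunit lost the call without si-NC library 3 (limma adjusted p = 0.0700). Psma5 was at 96.9, 96.8 and 100.3 FPKM in libraries labelled si-CIRBP, against 83.8, 68.4 and 81.2 FPKM in si-NC (log2 fold change 0.33, limma adjusted p = 0.00622). Psmb5 was at 76.5, 84.5 and 84.1 FPKM in libraries labelled si-CIRBP, against 67.7, 66.2 and 71.5 FPKM in si-NC (log2 fold change 0.25, limma adjusted p = 0.0211). In both of these core genes the groups did not overlap, but Psmb5 lost the call without si-CIRBP library 2 or 3 or si-NC library 2 (limma adjusted p = 0.0641, 0.0650 and 0.0522). The third catalytic subunit, Psmb6, averaged 109 ± 1.65 FPKM in libraries labelled si-CIRBP and 107.5 ± 3.66 FPKM in si-NC, with a 95% interval of its log2 fold change between -0.08 and 0.12. It was called higher with libraries brought to one median (0.13, limma adjusted p = 0.0354) and not with median ratios (0.117).

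The falls in that arm were led by Psmf1, which was at 35.9, 32.7 and 33.8 FPKM in libraries labelled si-CIRBP, against 56.0, 51.0 and 51.1 FPKM in si-NC. Its log2 fold change was -0.61 (limma adjusted p = 3.14e-05), and it is the single member called in every fit named above for this arm. The other falls were smaller. Psmg1 averaged 33.1 ± 4.35 FPKM in libraries labelled si-CIRBP and 39.8 ± 1.83 FPKM in si-NC (log2 fold change -0.26, limma adjusted p = 0.0461). Psmc4, at 91.9, 96.5 and 101.6 FPKM in libraries labelled si-CIRBP, against 110.7, 106.9 and 108.1 FPKM in si-NC, had -0.17 (limma adjusted p = 0.0193), as did Psme3ip1 (0.0134), and Psmd9 had -0.16 (0.0197). Psmc3ip rose to 23.7, 26.7 and 27.1 FPKM in libraries labelled si-CIRBP, against 21.5, 18.5 and 19.2 FPKM in si-NC (log2 fold change 0.37, limma adjusted p = 0.00383).

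The arms have separate controls, and 8 members were called in the same direction in both. Psma5, Psmb1, Psmb3 and Psmc3ip were higher in both, which is 80.0% of the 5 members higher in CIRBP and 40.0% of the 10 higher in the libraries labelled si-CIRBP. Psmc4, Psmd9, Psmf1 and Psmg1 were lower in both, which is 19% of the 21 members lower in CIRBP and 80.0% of the 5 lower in the libraries labelled si-CIRBP. There were 0 members called in opposite directions in this limma fit. The shares of all genes called alike or oppositely in both arms were not computed, so these counts stand without a background. The difference of the arms, the CIRBP effect minus the si-CIRBP effect, was itself tested. It was called for 14 members, 1 above and 13 below 0, against 17.8% of all genes tested, 6.87% above and 10.9% below. In the simulated data, with 200 changed genes, unchanged genes made up 35% of the calls of this difference, which is no estimate for the calls given here. Of the 13 below 0, 11 were genes of the 19S particle, namely Psmc1, Psmc2, Psmc5, Psmc6, Psmd1, Psmd2, Psmd3, Psmd6, Psmd8, Psmd12 and Psmd14, and the others were Psma2 and Psme4. The largest was that of Psmd1, at -0.58 (SE 0.0772, limma adjusted p = 0.00109), which averaged 82.9 ± 5.79 FPKM in libraries labelled si-CIRBP and 80.3 ± 0.928 FPKM in si-NC. In Psmc3ip the difference was 0.85 (limma adjusted p = 0.000697). The count of 14 fell to 8 without CIRBP library 1, 7 without CIRBP library 2, 9 without NC library 1 and 7 without NC library 3. These fits called 11.2%, 10.9%, 10.8% and 11.3% of all genes. With a variance factor per group 11 members were called, 9 of them genes of the 19S particle below 0, against 16.1% of all genes.

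A ratio within each library, which no scaling of libraries can change, shows the same contrast of particles. It was chosen after the values were seen, leaves out Sem1 and Adrm1, and is given as a description. The mean FPKM per gene of the 17 genes of the 19S particle, divided by that of the 14 core genes, was 0.728, 0.737 and 0.731 in CIRBP, against 0.952, 0.950 and 0.936 in NC. The libraries labelled si-CIRBP had 0.753, 0.834 and 0.831, against 0.888, 0.951 and 0.901 in si-NC. In each arm the 3 ratios lay below all 3 of the control, by -0.37 on the log2 scale for CIRBP against NC (SD within groups 0.012) and -0.18 for si-CIRBP against si-NC (SD within groups 0.069). The parts of the ratio differed between the arms. In CIRBP the 6 ATPase genes averaged 98.4 ± 2.40 FPKM per gene, against 120.8 ± 3.18 in NC, and the 11 non-ATPase genes 66.8 ± 1.74, against 83.8 ± 1.92 in NC. The core averaged 106.5 ± 3.12 FPKM per gene in CIRBP and 102 ± 3.44 in NC. In the libraries labelled si-CIRBP the 19S particle averaged 97.4 ± 3.08 FPKM per gene, within the range of si-NC (95.8 to 99.2), and the core 120.9 ± 3.72, above the range of si-NC (100.8 to 111.7).

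**Figure D3:**
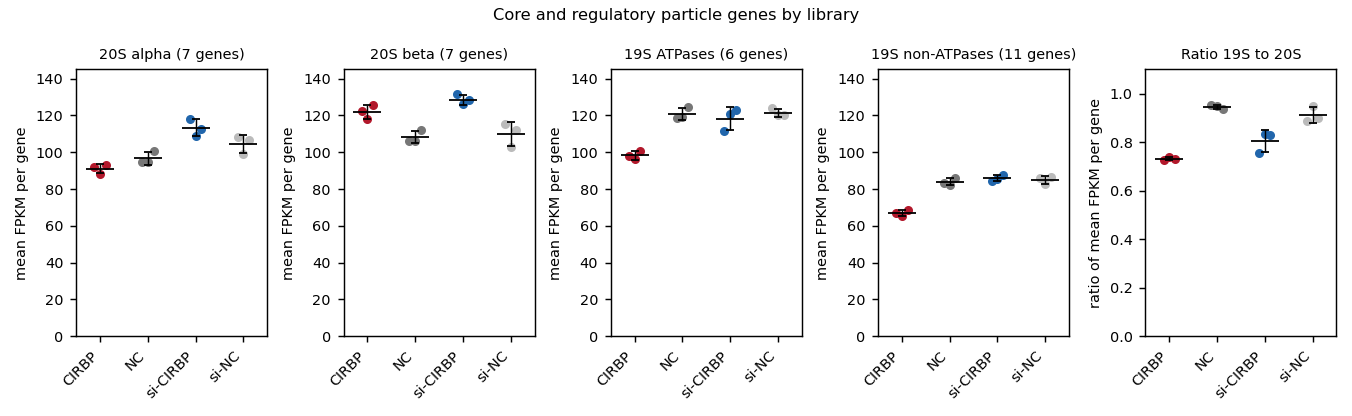
Mean FPKM per gene of the 20S alpha, 20S beta, 19S ATPase and 19S non-ATPase genes, and the ratio of the 19S to the 20S mean (y axes, starting at 0), in the 3 libraries of each group, with the mean and SD in black. The CIRBP libraries are below the NC libraries in both 19S panels, and the ratio is 0.728 to 0.737 in CIRBP and 0.936 to 0.952 in NC.

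The controls were set against each other to show how far the members differed without either treatment aimed at Cirbp. In si-NC against NC 11 members were called with limma, 5 higher and 6 lower, against 34.4% of all genes tested, 12.5% higher and 21.9% lower. In the simulated data, with 200 changed genes, unchanged genes made up 32% of the calls of this comparison, which is no estimate for the calls given here. Psmc4 was at 110.7, 106.9 and 108.1 FPKM in si-NC, against 81.4, 81.8 and 83.7 FPKM in NC (log2 fold change 0.40, limma adjusted p = 0.000305). Psma1, an alpha ring subunit, was at 124.5, 138 and 135 FPKM in si-NC, against 101.1, 96.6 and 104.4 FPKM in NC (log2 fold change 0.39, limma adjusted p = 0.000533). Both differed without overlap, and Psmc4 of si-NC stood above that of all the other groups' libraries. Psmd7 (0.22), Psma3l (0.21) and Psmb2 (0.20) were the other rises on the log2 scale. The falls were Psmd5 (-0.50, limma adjusted p = 0.0015), Psme4 (-0.34), Psmc6 (-0.23), Psmd9 (-0.20), Psmc3 (-0.15) and Psmd6 (-0.14). Leaving out single libraries ended the calls of Psmc6, Psmd6 and Psmd7 in 5 of 6 cases and that of Psmc3 in 4 of 6. Psmc3 and Psmd6 were also lost under either scaling, and Psmc6 with libraries brought to one median. Scaling turned the split to 9 higher and 3 lower with one median and 10 higher and 4 lower with median ratios. Of all genes, 32.6% and 33% were called, in either direction. The count fell to 7 without NC library 2, NC library 3 or si-NC library 3, where 20.9%, 22.2% and 21.7% of all genes were called. The muscle markers, with a summed level of 121 to 1480 FPKM in si-NC and 14.2 to 15.6 FPKM in NC, also separate these groups. So does Cirbp itself, at 29.0, 24.2 and 27.0 FPKM in si-NC, against 19.03, 19.84 and 20.1 FPKM in NC. The part of the markers and of Cirbp in these calls was not tested. The ratio of 19S to 20S differed by -0.05 on the log2 scale (SD within groups 0.038), and by -0.152 without genes that have a named pseudogene, where si-CIRBP against si-NC had -0.112.

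Other genes of the pathway were described as 4 lists. Of 17 other proteasome factors 16 had a row, the member Psme3ip1 among them, and in CIRBP against NC 11 of these were lower and 1 higher, with a median log2 fold change of -0.33, against 34.2% lower and 19.7% higher over all genes tested. With libraries brought to one median 9 of the 16 were lower and 1 higher. Zfand2a, an arsenite-inducible protein that binds the proteasome, was at 7.53, 7.63 and 7.64 FPKM in CIRBP, against 22.3, 23.3 and 23.0 FPKM in NC (log2 fold change -1.47, limma adjusted p = 1.13e-07). Further falls were those of the ubiquitin receptor of the 19S particle Adrm1 (-0.35), the deubiquitinases Usp14 (-0.41) and Uchl5 (-0.29), and the proteasome adaptor Ecpas (-0.49). The nuclear import factor Akirin2 (-0.36), the shuttle receptors Rad23b (-0.43), Ubqln1 (-0.32) and Ubqln2 (-0.59), and the thioredoxin-like Txnl1 (-0.22) fell as well, the call of Txnl1 being lost under either scaling (limma adjusted p = 0.346 and 0.174). Their limma adjusted p ran between 2.97e-05 for Rad23b and 0.0106 for Ubqln2. Pomp, the maturation factor of the core, was at 23.7, 37.9 and 30.4 FPKM in CIRBP, against 65.0, 35.6 and 80.7 FPKM in NC. The groups overlapped, and its fall (-0.90, limma adjusted p = 0.0252) was lost in 4 of the 6 fits without 1 library. The rise was that of Sem1 (0.23, limma adjusted p = 0.00186), a small subunit of the 19S lid without a Psm name.

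In si-CIRBP against si-NC 5 of the 16 other factors were lower and 1, Sem1, higher (log2 fold change 0.32, limma adjusted p = 0.000661), against 20.5% lower and 9.08% higher over all genes tested. Sem1 was at 128, 121.5 and 124 FPKM in libraries labelled si-CIRBP, against 100.5, 96.3 and 100.8 FPKM in si-NC. Zfand2a fell in this arm too, to 16.8, 18.8 and 20.1 FPKM in libraries labelled si-CIRBP, against 37.4, 33.7 and 38.4 FPKM in si-NC (log2 fold change -0.94, limma adjusted p = 1.15e-05). The other falls were those of Akirin2 (-0.42), Ecpas (-0.25), Uchl5 (-0.22) and Psme3ip1. Ecpas, Uchl5 and Psme3ip1 lost the call under either scaling, with only the groups compared and with a variance factor per group. They also lost it without single libraries, Ecpas without si-NC library 1 or 3, Uchl5 without si-CIRBP library 3 and Psme3ip1 without si-NC library 3.

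The inducible subunits replace the catalytic ones in cells exposed to interferon. Psmb8, which takes the place of Psmb5, was at 10.7, 12.3 and 11.5 FPKM in CIRBP, against 18.4, 18.2 and 19.6 FPKM in NC (log2 fold change -0.66, limma adjusted p = 0.000770). Psmb9, which takes the place of Psmb6, went the other way, at 18.9, 20.2 and 21.2 FPKM in CIRBP, against 13.6, 13.5 and 13.9 FPKM in NC (log2 fold change 0.52, limma adjusted p = 0.00307). Neither gene's groups overlapped, so these inducible subunits differed in direction. Psmb10 and Psme2 did not pass the test in CIRBP (log2 fold changes -0.07 and -0.19). In si-CIRBP against si-NC Psmb8 (-1.0), Psmb10 (-0.43) and Psme2 (-0.41) fell (limma adjusted p = 0.000211, 0.0266 and 0.00941), and Psmb9 had -0.31 (0.0663). The call of Psmb10 was lost with libraries brought to one median (limma adjusted p = 0.0676), when each group had its own variance factor, with only the groups compared, and without si-CIRBP library 1 or 2 or si-NC library 1 or 3, and that of Psme2 with only the groups compared. Psme1 was at or under 0.311 FPKM in all 12 libraries and was not tested.

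Of the 13 regulators of proteasome genes, 12 were tested, and in CIRBP against NC 2 were higher and 4 lower, a share near that of all genes tested (19.7% higher and 34.2% lower). Nfe2l1, which encodes NRF1, was at 82.8, 82.8 and 76.3 FPKM in CIRBP, against 54.2, 54.1 and 52.2 FPKM in NC (log2 fold change 0.58, limma adjusted p = 0.00433). Mafk, a small Maf protein that pairs with NRF1 on DNA, was at 8.82, 8.31 and 9.46 FPKM in CIRBP, against 25.4, 23.5 and 25.8 FPKM in NC (log2 fold change -1.39, limma adjusted p = 2.31e-05). Nfyc fell (-0.87, limma adjusted p = 0.000402), and Nfyb did not pass the test (-0.02). Nfya had 0.13 (0.0465), a call lost whichever of the 6 libraries was left out (limma adjusted p between 0.0619 and 0.167). Ngly1, the glycanase that processes NRF1, and Vcp, the ATPase that extracts it from the membrane, fell by 0.37 and 0.22 on the log2 scale (limma adjusted p = 0.00536 and 0.0213). The call of Vcp was lost under either scaling (-0.07 and -0.09) and without CIRBP library 2 or 3 or NC library 1 or 3. Ddi2, the protease that cuts NRF1 free, had 0.04 (0.744). In si-CIRBP against si-NC Mafk (-0.60, limma adjusted p = 0.0126) and Nfe2l2 (-0.36, 0.000434), which encodes NRF2, were lower and 0 were higher. Of all genes tested, 20.5% were lower and 9.08% higher in this arm. The call of Mafk was lost with only the groups compared (limma adjusted p = 0.101). Nfe2l1 had -0.11 in si-CIRBP against si-NC (limma adjusted p = 0.607).

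Of 5 genes for ubiquitin and its activating enzymes, 2 were lower in CIRBP and 0 higher, near the 34.2% lower over all genes tested, and under either scaling 2 were lower and 1 higher. Uba1, the main activating enzyme, was at 101.9, 96.9 and 104.3 FPKM in CIRBP, against 135.5, 136 and 138 FPKM in NC (log2 fold change -0.43, limma adjusted p = 2.67e-05), and Uba6 had -0.33 (0.000904). The groups did not overlap in either gene. In si-CIRBP against si-NC Uba6 had -0.21 (limma adjusted p = 0.0235), a call lost under either scaling (0.188 and 0.0682), when each group had its own variance factor, with only the groups compared, and without si-CIRBP library 3 or si-NC library 1 or 3.

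**Figure D4:**
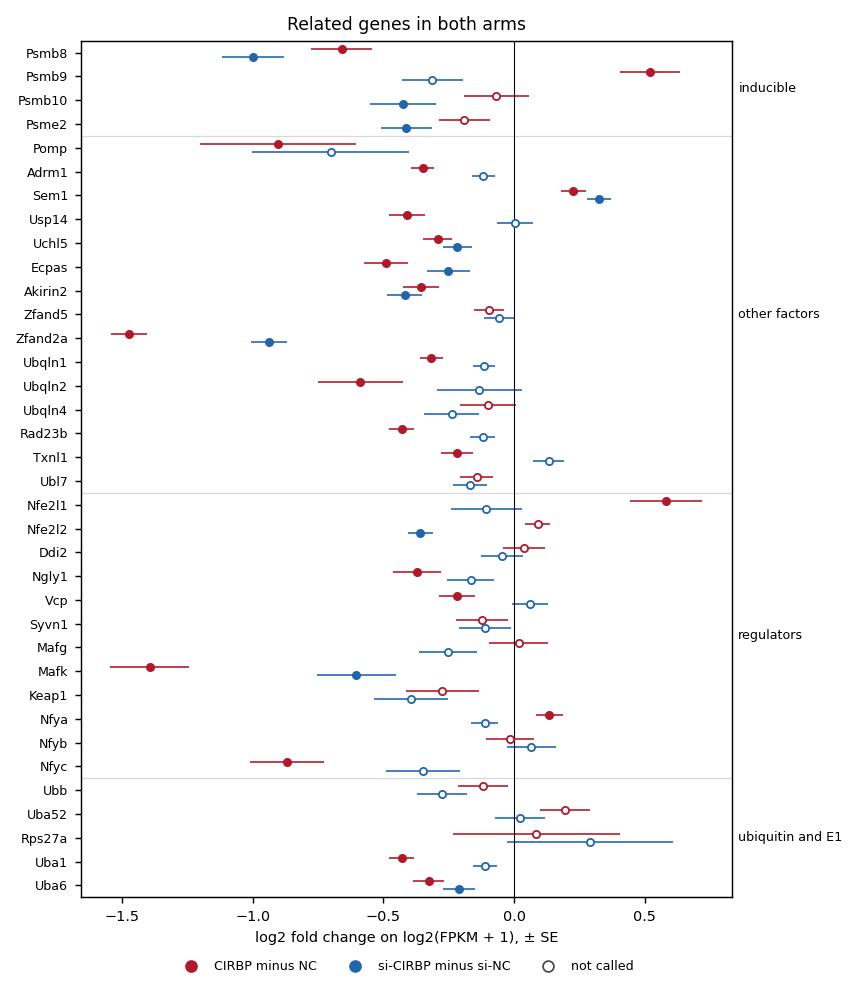
Log2 fold change on the log2(FPKM + 1) scale (x axis, points with SE) of the tested genes of the 4 lists (without the member Psme3ip1), for CIRBP minus NC in red and si-CIRBP minus si-NC in blue, with filled points for an adjusted p under 0.05 with limma. Zfand2a and Mafk have the lowest values in CIRBP minus NC, at -1.47 and -1.39, and Nfe2l1 and Psmb9 the highest, at 0.58 and 0.52.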

How the data were processed

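Expression was deposited by the authors as FPKM, per the file headers, in 1 table of genes by libraries whose columns were matched to the 12 samples by their names. Bowtie2 2.3.3.1, Cufflinks 2.2.1 and mouse builds are named per the submitters' processing notes, while the identifiers are rat Ensembl ones, so the build is unclear. Strand use and the handling of reads shared by near-identical copies are not stated, and 16 members have 39 named pseudogenes in RefSeq, which makes those members uncertain one by one.

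The tests used limma 3.58.1 in R 4.3.3 (moderated by eBayes, trend on) on log2(FPKM + 1), over 14257 rows that reached 1 FPKM in 3 libraries. The fit had 1 coefficient per group over 12 libraries (8 residual and 2.53 prior degrees of freedom). Two-sided p-values were adjusted over all these rows (Benjamini-Hochberg), and genes under 0.05 were called. Fold changes understate the change of low genes. Whether replicates came from separate cultures is not stated beyond the label of biological replicates, so p-values measure the spread between these libraries. No pair of libraries shared over 1% of equal values. The alternatives were a pseudocount of 0.1, no filter, scaling to one median or by median ratios, only the groups compared, no trend, a variance factor per group, a replicate block, and leaving out each library. The fit was tested on simulated data in which 200 of 14257 genes were changed by 1 on the log2 scale. Unchanged genes made up 64.3% of the calls in si-CIRBP against si-NC and 35% in the difference of the arms. They made up 32% in si-NC against NC and 5.7% in CIRBP against NC. All of these are above what the threshold of 0.05 aims at. They hold for 200 changed genes and do not carry over to the deposited data, where far more genes were called. The members, the gene lists and the ratio of particles were chosen with earlier results of these data known. Values per library were given for the catalytic subunits, the 4 largest called rises and falls of each comparison and the extremes of each role, and other members and genes named with values were picked once their values were known. Of the listed genes, 2 are not reported here. The depth behind a value is unknown, so no counting interval was computed, and a value listed at 0 can be a failed estimate.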

Additional observations from a re-analysis of the deposited data

Results flagged for a closer look

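The CIRBP effect and the si-CIRBP effect differed for 14 members by the test of the difference itself (limma, adjusted p under 0.05, log2 scale). Of all genes tested, 17.8% were called, 6.87% above and 10.9% below 0. Below 0 were the ATPase genes Psmc1 (-0.32), Psmc2 (-0.33), Psmc5 (-0.40) and Psmc6 (-0.40). Also below 0 were the non-ATPase genes Psmd1 (-0.58), Psmd2 (-0.38), Psmd3 (-0.30), Psmd6 (-0.46), Psmd8 (-0.43), Psmd12 (-0.51) and Psmd14 (-0.39). The same held for the alpha subunit Psma2 (-0.34) and the activator Psme4 (-0.32). Psmc3ip, which is no subunit, stood above 0 (0.85). Of the 14 calls, 7 were lost in at least 1 fit that left out a library. These were Psma2, Psmc1, Psmc5, Psmc6, Psmd3, Psmd14 and Psme4, with Psmc5 and Psme4 lost in 9 of 12 such fits. Cirbp was higher in CIRBP and did not pass the test in the libraries labelled si-CIRBP, and the arms also differ in muscle transcripts and in the spread between replicates. The part of these in the differences was not tested.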

How the results depend on the processing

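Of 126 calls of single genes named or counted, tried in 1894 alternatives, 1583 kept direction and call, 311 lost the call and 0 turned round. Calls of members ran between 24 and 32 in CIRBP against NC over all alternatives and were 24 to 26 without single libraries. The 32 came from the fit of only the groups compared, which called 74.3% of all genes. In si-CIRBP against si-NC the 15 calls became 1 with only the groups compared and 3 with a variance factor per group, and 11 to 17 without single libraries. The difference of the arms gave 7 to 19 without single libraries (8, 7, 9 and 7 without CIRBP library 1, CIRBP library 2, NC library 1 and NC library 3), and si-NC against NC 7 to 12 (7 without NC library 2, NC library 3 or si-NC library 3). Calls never lost when a library was left out numbered 24, 7, 7 and 7 in the 4 comparisons. Cirbp in si-CIRBP against si-NC passed it once libraries were scaled to one median (0.16, limma adjusted p = 0.0434), as a rise, and had -0.0177 without si-NC library 2, within -0.0177 to 0.109 over single libraries left out, so its sign is unsettled. In CIRBP against NC the Cirbp value ran between 0.81 and 0.86 without single libraries. Without the most abundant member, the share of summed FPKM became 0.626% in CIRBP and 0.735% in NC. It became 0.712% in the libraries labelled si-CIRBP and 0.715% in si-NC. Removing a member lowers this share by construction. Over rows that are not mitochondrially encoded it became 0.726% in CIRBP, 0.824% in NC, 0.813% in the libraries labelled si-CIRBP and 0.810% in si-NC. By alternatives added after the data were seen, the ratio of 19S to 20S in CIRBP against NC differed by -0.385 with geometric means, -0.399 without the most abundant gene of each particle and -0.345 without genes that have a named pseudogene. The last gave -0.112 in place of -0.181 in si-CIRBP against si-NC, and -0.152 in place of -0.05 in si-NC against NC. Without single libraries the ratio differed by -0.377 to -0.365 in CIRBP against NC, -0.206 to -0.133 in si-CIRBP against si-NC and -0.081 to -0.032 in si-NC against NC. The replicate block gave 26, 14, 14 and 10 calls in the 4 comparisons, against 26, 15, 14 and 11. Same-numbered libraries correlated by 0.097, 0.048 and 0.1 in CIRBP and NC, where each correlated best with its own number and negatively with the others. In the other arm the values were 0.014, -0.090 and 0.041. The labels give only a number, and whether libraries were paired by it is not settled by these values. The causes of these changes were not tested.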
